A study of Mus musculus with 20 samples.

Results

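Erythroid progenitors kept with erythropoietin (Epo) for 14, 19 and 24 h were compared with progenitors kept without it for 5, 6 and 7 h. These 6 arrays, 3 a side, were chosen by their titles from the 20 arrays of the study. All arrays held RNA of cells at the stage of the colony-forming unit erythroid (CFU-E), taken from livers of BALB/c mouse embryos at day E13.5. Cells carrying markers of other blood lineages or the late red cell marker TER119 had been bound by antibodies and removed on magnetic columns. Per the study's design text, sorted cells went without Epo for 1 h and then received it at 0.5 U/ml or stayed without. The labels also describe a culture of 12 to 14 h with 0.5 U/ml Epo, and do not say how it falls relative to the starvation. Each series had its own 0 h array, and each treatment and time had 1 array. Nothing in the labels says that the times came from separate cultures or how many embryos were pooled. The errors below thus measure the scatter between the times within the sides, with any trend over them, and may be technical. For each gene, that scatter is pooled over both sides. The spread from 14 to 24 h with Epo therefore also enters the error of the deprived change. Treatment and time are joined here: Epo at 14 to 24 h and its absence at 5 to 7 h cannot be told apart as sources of a difference between the sides.

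Epo is the hormone that keeps CFU-E cells alive and dividing while they mature into red cells. Its receptor activates the kinase JAK2, which phosphorylates the transcription factor STAT5. STAT5 turns on survival genes and genes of the SOCS family, which damp the receptor in turn. A maturing cell leaves the cell cycle, makes heme and globin, and breaks down its organelles. A cell deprived of Epo also stops dividing and then dies. Maturation and deprivation may thus share some gene changes and oppose each other in others, and the comparison sorts genes by that.

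The log2 quantities given are of 3 kinds, each ± SE from a linear model across 18193 genes. The first is the difference between the sides, late Epo minus deprived. The others are the change of the late Epo side and the change of the deprived side, each from the 0 h array of its own series. A gene was called at an adjusted p under 0.05 with a log2 value of at least 1 in size, which is 2-fold. The changes and the difference between them rest on a single 0 h array per series and are less precise than the difference between the sides.

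The arrays were alike in the gap between 3' and 5' probes of actin, 0.57 to 0.71 on all 8 arrays used. The spread of levels over genes was narrower at 24 h with Epo (SD 2.42) than at 14 and 19 h (2.56 and 2.55) and without Epo (2.67 to 2.69). A control probe set for ribosomal RNA lay at 6.0 to 6.79 on the late Epo arrays and at 7.34 to 8.47 on the deprived ones. The spiked bioB control lay at 8.62 to 9.24 and 7.8 to 8.08. At 0 h the ribosomal RNA control lay at 6.4 in the Epo series and 8.45 in the other, and bioB at 8.47 and 7.91. Both controls thus differed between the series from 0 h on. The 0 h arrays themselves differed by at least 1: 436 genes were higher (2.4% of genes) and 115 lower (0.632%) in the Epo series. Of 10 CFU-E markers analysed, Klf1 lay at 12.24 to 12.8 and Tfrc, the transferrin receptor, at 13.14 to 13.51 on all 6 arrays. Others of the 10 differed between the sides, Alas2 by 2.46, Epor by -1.48 and Kit by -3.91, and Kit lay at 3.6 to 4.86 late with Epo against 7.98 to 8.08.

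Markers of liver cells were also present at 0 h and fell on both sides. The median level of 13 hepatocyte markers was 9.7 at 0 h in the Epo series and 8.4 at 0 h in the other, 5.61, 5.45 and 4.95 at 14, 19 and 24 h with Epo, and 6.58, 6.37 and 6.4 at 5, 6 and 7 h without. Fga, a fibrinogen chain made by hepatocytes, was at 9.33 at 0 h and 3.41, 3.37 and 2.38 late with Epo, and at 7.83 and then 5.3, 4.55 and 4.59 without. From 0 h, 13 of the 13 markers were called lower late with Epo, against 8.36% of all genes, and 8 in deprived cells, against 3.44%. Between the sides 7 were lower, against 10.9% of all genes, or 3 without any 1 of the deprived arrays. Without the 24 h array, 13 were called lower in deprived cells. In bulk RNA, fewer hepatocytes and less RNA per hepatocyte cannot be told apart. The part of liver cell transcripts in the other genes called lower was not tested. Macrophage, megakaryocyte, mast cell, lymphoid, endothelial and stromal marker lists had median levels of 2.74 to 5.17 on the 6 arrays and at most 1 member each called between the sides.

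The promoters of 5 genes that each hold the letters marked in them are printed first. They are examples of a group that set the sides apart and of one that moved alike. Each is the 250 bases before the start of the gene from RefSeq, assembly GRCm38.p6, 5' to 3' on the gene's strand. In Socs3 and Irgm2, which rose late with Epo (by 3.99 and 4.0) and were not called in deprived cells (-0.23, and 0.97 for Irgm2, just under the threshold), capitals mark TTCNNNGAA, the letters that STAT proteins bind. In Nupr1, Chac1 and Atf3, which rose on both sides, capitals mark TGATGNAA, read on either strand, the letters bound by ATF4 paired with a C/EBP protein. Only 1 motif is marked per gene: the Nupr1 promoter also holds TTCNNNGAA, left in small letters.
Socs3 (chr11:117969367-117969616, minus strand): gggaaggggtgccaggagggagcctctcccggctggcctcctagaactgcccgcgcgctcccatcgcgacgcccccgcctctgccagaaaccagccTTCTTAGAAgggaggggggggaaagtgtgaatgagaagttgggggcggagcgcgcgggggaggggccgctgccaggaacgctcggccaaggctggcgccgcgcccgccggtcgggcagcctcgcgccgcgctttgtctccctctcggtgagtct
Irgm2 (chr11:58214727-58214976, plus strand): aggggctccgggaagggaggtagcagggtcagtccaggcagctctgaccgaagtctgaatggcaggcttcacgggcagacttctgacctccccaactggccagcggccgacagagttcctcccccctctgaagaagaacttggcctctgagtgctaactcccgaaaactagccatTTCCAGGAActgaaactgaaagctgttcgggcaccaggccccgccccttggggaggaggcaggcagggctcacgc
Nupr1 (chr7:126625471-126625720, minus strand): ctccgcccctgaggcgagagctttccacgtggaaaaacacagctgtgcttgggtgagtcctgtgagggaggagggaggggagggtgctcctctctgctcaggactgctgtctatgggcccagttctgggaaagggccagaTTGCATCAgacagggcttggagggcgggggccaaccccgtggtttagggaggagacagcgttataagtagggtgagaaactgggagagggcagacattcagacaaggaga
Chac1 (chr2:119350992-119351241, plus strand): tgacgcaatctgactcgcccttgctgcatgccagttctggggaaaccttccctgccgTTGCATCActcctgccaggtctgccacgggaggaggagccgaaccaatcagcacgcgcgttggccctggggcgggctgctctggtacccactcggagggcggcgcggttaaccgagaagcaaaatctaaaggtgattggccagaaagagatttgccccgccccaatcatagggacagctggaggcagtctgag
Atf3 (chr1:191183334-191183583, minus strand): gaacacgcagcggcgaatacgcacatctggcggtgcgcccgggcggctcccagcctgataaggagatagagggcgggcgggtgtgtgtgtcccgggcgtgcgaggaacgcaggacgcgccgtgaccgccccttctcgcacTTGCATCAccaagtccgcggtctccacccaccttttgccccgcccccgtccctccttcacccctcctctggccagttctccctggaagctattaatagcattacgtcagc
The match began 154 bases before the start in Socs3 and 75 in Irgm2, and 110, 193 and 110 in Nupr1, Chac1 and Atf3. Both motifs, and others not given here, were searched on both strands in 14452 promoters of genes tested. TTCNNNGAA was in 6.3% of all promoters, in 6 of the 18 promoters found (33.3%) for the class of genes called higher on the late Epo side with a change under 1 on the other, in 5.88% of those for genes that rose on both sides, and in 2 of 15 (13.3%) for listed STAT5 targets. In the other classes and lists searched it was in 0.0% to 14.7%. These held listed ribosome biogenesis genes (14.7%), FOXO targets (11.5%) and ATF4 genes (11.1%), so the share for STAT5 targets does not stand out. TGATGNAA was in 2.43% of all promoters, in 7 of 27 (25.9%) for listed ATF4 and amino acid response genes, and in 3.27% of those for all genes that rose on both sides. Not every gene of these groups had a match. Pim1, Cish and Rragd of the late Epo class had no TTCNNNGAA, and Trib3 and Ddit3, which rose on both sides, no TGATGNAA. A match is a description of these letters and not a bound site.

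The direct comparison asked how maturing cells differed from deprived ones. The late Epo side was higher in 605 genes (3.33% of those tested) and lower in 1988 (10.9%). The 3 late arrays lay above the 3 deprived arrays without overlap in 5511 genes (30.3%) and below them in 4626 (25.4%). Under quantile normalization, which gives every array the same spread, the counts were 928 higher and 1385 lower, so that 40.1% of the calls were higher instead of 23.3%. With 1 array left out at a time they ranged from 574 to 713 higher and 1614 to 2338 lower. Of 3304 other probe sets for the called genes, 2538 (76.8%) differed in the same direction.

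Inhibitors of the Epo receptor were among the genes that were higher. Socs3, which blocks JAK2, lay at 7.83, 8.38 and 8.83 on the late Epo arrays and at 3.84, 3.65 and 3.5 on the deprived arrays, a difference of 4.68 ± 0.25 (adjusted p = 2.2e-05). Socs2 of the same family lay at 8.07, 8.56 and 7.99 against 4.42, 4.6 and 4.3, a difference of 3.77 ± 0.19 (adjusted p = 2.2e-05). Cish, another brake on STAT5 signalling, lay at 7.88, 8.42 and 8.66 against 5.86, 5.45 and 5.74, a difference of 2.63 ± 0.23 (adjusted p = 9.8e-05). None of these overlapped between the sides. The survival kinase gene Pim1 differed by 2.67 ± 0.23, with 9.43 to 10.32 against 7.19 to 7.35. Csf2rb, the beta chain shared by receptors for interleukin-3 and GM-CSF, lay at 6.35, 7.77 and 8.4 against 4.62, 4.43 and 3.94. Of 22 listed STAT5 targets, 6 were higher and 2 lower between the sides, against 3.33% and 10.9% of all genes, and the list's median was 0.21 against 0.12 over all genes. The 2 that were lower were the anti-apoptotic gene Mcl1 (-1.12) and Myc (-1.62).

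The largest rises between the sides also held Ncf4, Irgm2, Gch1, Mtf1 and Msmo1. Ncf4, a subunit of the phagocyte NADPH oxidase, lay at 8.9, 9.92 and 11.07 late with Epo and at 5.93, 5.9 and 5.99 in deprived cells (4.02 ± 0.45, adjusted p = 0.00027). Irgm2, an immunity-related GTPase, lay at 10.17, 11.01 and 11.19 against 6.79, 6.91 and 7.38 (3.76 ± 0.28). Gch1, the first enzyme of tetrahydrobiopterin synthesis, lay at 7.96, 9.3 and 10.45 against 5.58, 5.57 and 5.65. Mtf1, a metal-responsive transcription factor, differed by 3.31 ± 0.16, but its 5 probe sets ranged from -0.17 to 3.31. Fhl1 and Ypel4 differed by 3.18 and 3.21; the 2 probe sets of Fhl1 ranged from -0.04 to 3.18.

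Among the genes that were lower late with Epo, Cyp1a1 stood first. This cytochrome P450 gene, a classic target of the aryl hydrocarbon receptor, lay at 4.99, 4.69 and 4.74 late with Epo and at 11.11, 11.01 and 10.89 in deprived cells, a difference of -6.2 ± 0.16 (adjusted p = 6.4e-07). From 0 h it rose on both sides, by 1.76 late with Epo and by 8.64 in deprived cells. At 5, 6 and 7 h with Epo it lay at 7.19, 6.79 and 6.57. Relb, an NF-kappaB subunit, lay at 3.44, 3.48 and 4.12 against 8.85, 8.74 and 8.28 (-4.94 ± 0.23). The water channel gene Aqp1 lay at 5.0, 4.7 and 3.68 against 8.83, 8.77 and 8.71 (-4.31 ± 0.3). Kit, the stem cell factor receptor of progenitors, lay at 3.92, 3.6 and 4.86 against 8.05, 7.98 and 8.08 (-3.91 ± 0.29, adjusted p = 5.9e-05). Notch2 (-3.6), Rhob (-3.57), Sipa1l3 (-3.51), Gadd45g (-3.48), Net1 (-3.46) and Trib2 (-3.39) followed; other probe sets reached 0.15 for Notch2 and 0.33 for Trib2. These genes were picked among called genes whose sides did not overlap, so their separation follows from the choice.

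**Figure D1:**
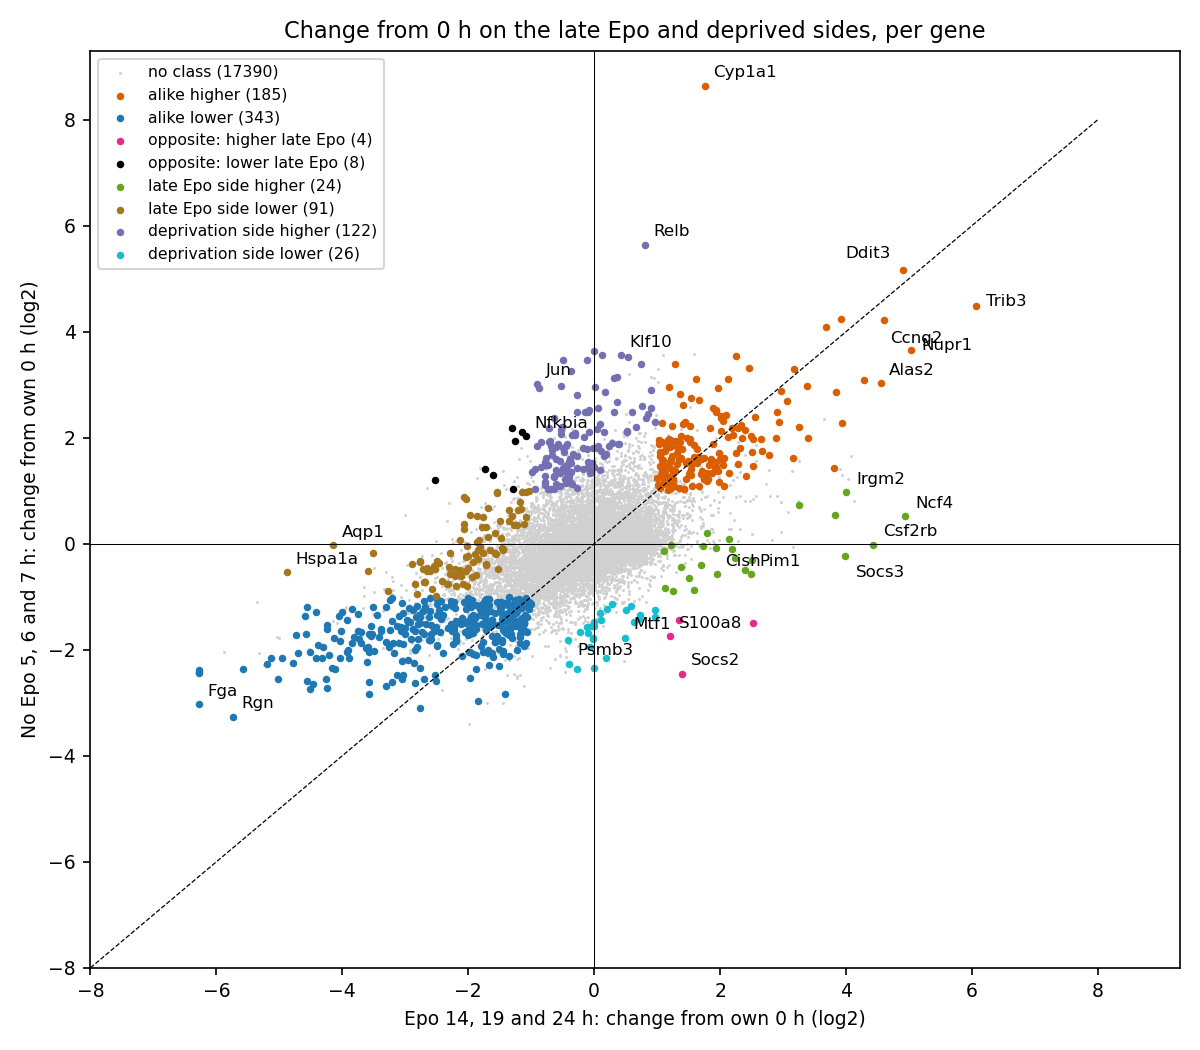
Each point is 1 of 18193 genes, placed by its change from 0 h at 14, 19 and 24 h with Epo (horizontal, log2) and at 5, 6 and 7 h without Epo (vertical, log2); colours are the 8 classes with their number of genes, grey is no class, and the dashed line marks equal changes. Trib3 (6.06 and 4.48) rose and Fga (-6.27 and -3.02) fell on both sides, each by more late with Epo. Relb (0.81 and 5.64) and Socs3 (3.99 and -0.23) lie near 1 axis.

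Set against their own 0 h arrays, 509 genes rose (2.8%) and 1521 fell (8.36%) on the late Epo side, and 725 rose (3.99%) and 626 fell (3.44%) on the deprived side. Under quantile normalization 42.9% of the late Epo calls were rises instead of 25.1%, and 100 called differences of the changes were higher and 257 lower, instead of 57 and 310. On single arrays, 364, 755 and 1403 genes were at least 1 above their 0 h level at 14, 19 and 24 h with Epo (2.0%, 4.15% and 7.71%), and 1293, 1850 and 3032 at least 1 below it (7.11%, 10.2% and 16.7%). At 5, 6 and 7 h without Epo, 820, 826 and 931 were above (4.51%, 4.54% and 5.12%) and 893, 1011 and 1088 below (4.91%, 5.56% and 5.98%). The counts thus grew with time on the late Epo side and changed less between 5 and 7 h without Epo. Of the genes named under the rule, 94 were called late with Epo and 81 in deprived cells, of which 27 and 28 lost the call without at least 1 array. These losses came mostly without 19 h or without a deprived array: 23 without 19 h late with Epo, and 24, 25 and 26 without 5, 6 and 7 h in deprived cells. Between the sides 17 of 152 lost it. Over all genes, changes on the 2 sides had a Pearson correlation of 0.55 and a Spearman correlation of 0.44, given as a description, since genes are not independent. Of 540 genes called on both sides, 528 moved in the same direction: 185 rose on both (1.02% of all genes) and 343 fell on both (1.89%). The other 12 moved apart, 4 higher late with Epo and lower in deprived cells (0.022% of genes) and 8 the other way (0.044%). Further genes moved on 1 side, with less than 1 on the other and with the difference of the changes called: 24 rose and 91 fell on the late Epo side, and 122 rose and 26 fell on the deprived side (0.132%, 0.5%, 0.671% and 0.143% of genes). The classes are made from the same values, so their changes are a description of them. The late Epo counts were 842 and 2333 without 14 h, 311 and 956 without 19 h, and 324 to 336 and 931 to 970 without 1 deprived array. The deprived counts were 336 to 376 and 234 to 284 without 1 deprived array, and 989 fell without 24 h. The genes rising on both sides numbered 99 without 19 h and 77 to 92 without 1 deprived array, and those falling on both 579 without 14 h, 567 without 24 h and 142 to 162 without 1 deprived array.

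Genes of the stress response factor ATF4 rose on both sides in 13 of 29 cases. ATF4 is the factor of the integrated stress response, active when amino acids or heme run short. Of 29 listed ATF4 and amino acid response genes, 15 rose and 2 fell on the late Epo side, 16 rose on the deprived side and 13 rose on both. Over all genes 2.8% rose and 8.36% fell late with Epo, 3.99% rose in deprived cells and 1.02% rose on both. The list's median change was 1.13 and 1.28, against 0.1 and -0.01 over all genes. Trib3, a pseudokinase, went from 5.51 at 0 h to 10.71, 11.8 and 12.2 late with Epo and from 5.47 to 9.93, 9.89 and 10.02 without. Ddit3, the factor CHOP, went from 6.51 to 10.62, 11.79 and 11.86 and from 6.39 to 11.57, 11.52 and 11.55, and the sides overlapped. At 5 to 7 h with Epo it lay at 8.41 to 8.99, below the deprived arrays at the same hours. Nupr1, a stress-induced chromatin protein, went from 4.5 to 8.56, 9.92 and 10.11 and from 4.0 to 7.79, 7.61 and 7.55. Chac1, which degrades glutathione, rose by 3.84 ± 0.24 and 2.87 ± 0.24. Atf4 and Atf3 were looked up after the values were seen. Atf4 rose by 1.94 and 1.55, and Atf3 by 3.17 and 3.29. Between the sides 5 of the 29 were higher (10 without 14 h), with Atf5 at 1.91, and 1 was lower.

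Cell cycle brakes rose on both sides in 9 of 19 cases. Of 19 listed genes, 10 rose and 1 fell on each side, and 9 rose on both, with median changes of 1.07 and 1.39. Over all genes 2.8% rose and 8.36% fell late with Epo, 3.99% rose and 3.44% fell in deprived cells, and 1.02% rose on both. Ccng2, a cyclin that holds cells out of division, went from 5.42 to 8.71, 10.14 and 11.19 late with Epo and from 4.89 to 9.16, 9.02 and 9.12 without. At 5 to 7 h with Epo it lay at 5.67 to 5.81. The cyclin-dependent kinase inhibitors Cdkn1a and Cdkn2d rose by 2.94 ± 0.32 and 2.65 ± 0.41 on the late Epo side and by 2.29 ± 0.32 and 1.98 ± 0.41 on the deprived side. Cdkn1b rose by 2.29 ± 0.52 late with Epo (adjusted p = 0.022). Its deprived change of 1.92, from 6.43 to 8.41, 8.3 and 8.33, had an adjusted p of 0.051 under the error pooled with the late Epo times. Among 30 listed targets of FOXO factors, which Epo signalling keeps inactive, 9 rose late with Epo, 12 rose in deprived cells and 8 rose in both. Foxo3 itself went from 8.09 to 9.77, 10.24 and 10.61 and from 8.72 to 10.77, 10.64 and 10.81. The largest splits inside the list were Txnip, an inhibitor of thioredoxin, and Klf10. Txnip went from 7.49 to 10.71, 10.79 and 10.63 without Epo (3.21 ± 0.46) and lay at 7.3, 8.31 and 8.82 late with Epo, against 7.58 at 0 h. Of 23 listed p53 targets 5 rose on both sides, among them Trp53inp1, with 3.68 and 4.09. The pro-apoptotic gene Bbc3 (PUMA) rose by 1.96 and 2.94, and its levels were lower late with Epo (-1.35 ± 0.24).

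Some genes of the red cell programme rose on both sides and some were called late with Epo. Alas2, the first enzyme of heme synthesis in red cells, went from 7.7 to 11.4, 12.51 and 12.82 late with Epo and from 6.75 to 9.66, 9.72 and 9.97 without. The rises were 4.55 ± 0.45 and 3.03 ± 0.45, and the late side was higher by 2.46 ± 0.32 (adjusted p = 0.00059). At the same hours as the deprived arrays, Alas2 with Epo lay at 9.21, 9.64 and 9.92. Of 14 heme synthesis genes, 7 rose late with Epo and 5 in deprived cells, 4 of them on both sides, with medians of 0.85 and 0.75. The shares over all genes were 2.8%, 3.99% and 1.02%. Uros, uroporphyrinogen synthase, rose by 1.83 and 1.48. Abcb10, a mitochondrial transporter, lay lower late with Epo (9.75, 10.28 and 10.05) than in deprived cells (10.87, 10.91 and 11.29). Of 6 globin genes analysed, Hbb-bh1, Hbb-b2 and Hba-a2 were higher late with Epo, by 2.7, 1.36 and 1.24. For Hbb-b2 the other probe set gave -0.42, and globin copies can share probes. Hbb-y fell by 1.07 late with Epo. Slc4a1, the anion exchanger of the red cell membrane, rose by 1.46 ± 0.18 and 1.22 ± 0.18.

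Genes of terminal remodelling take in ubiquitin enzymes and others known from late erythroblasts. Of 21, 14 rose late with Epo (19 without 14 h, 7 without 19 h). In deprived cells 3 rose (8 without 14 or 24 h, 1 without any 1 of the deprived arrays). Between the sides 9 were higher (12 without 14 h, 6 without 19 h, 24 h or any 1 of the deprived arrays). The medians were 1.84 and 0.8. Among all genes 2.8% rose late with Epo and 3.99% in deprived cells, and 3.33% were higher and 10.9% lower between the sides. The median change was 1.1, 1.81 and 2.36 at 14, 19 and 24 h. Ube2l6, a ubiquitin-conjugating enzyme, lay at 8.61, 9.28 and 9.9 against 7.16, 7.29 and 7.31. Isg20, an exonuclease, lay at 7.37, 8.09 and 8.28 against 5.77, 5.6 and 5.23. Marchf2, a membrane-bound ubiquitin ligase, lay at 10.07, 10.72 and 11.53 against 8.62, 8.59 and 8.55. In these 3 genes the late arrays lay above the deprived ones. Of 27 membrane and surface genes, 12 rose late with Epo (7 without 19 h) and 7 in deprived cells (3 without any 1 of the deprived arrays). Between the sides 4 were higher (8 without 14 h), such as Ackr1 at 2.37, the Duffy antigen receptor, and 3 lower (5 without 19 h).

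**Figure D2:**
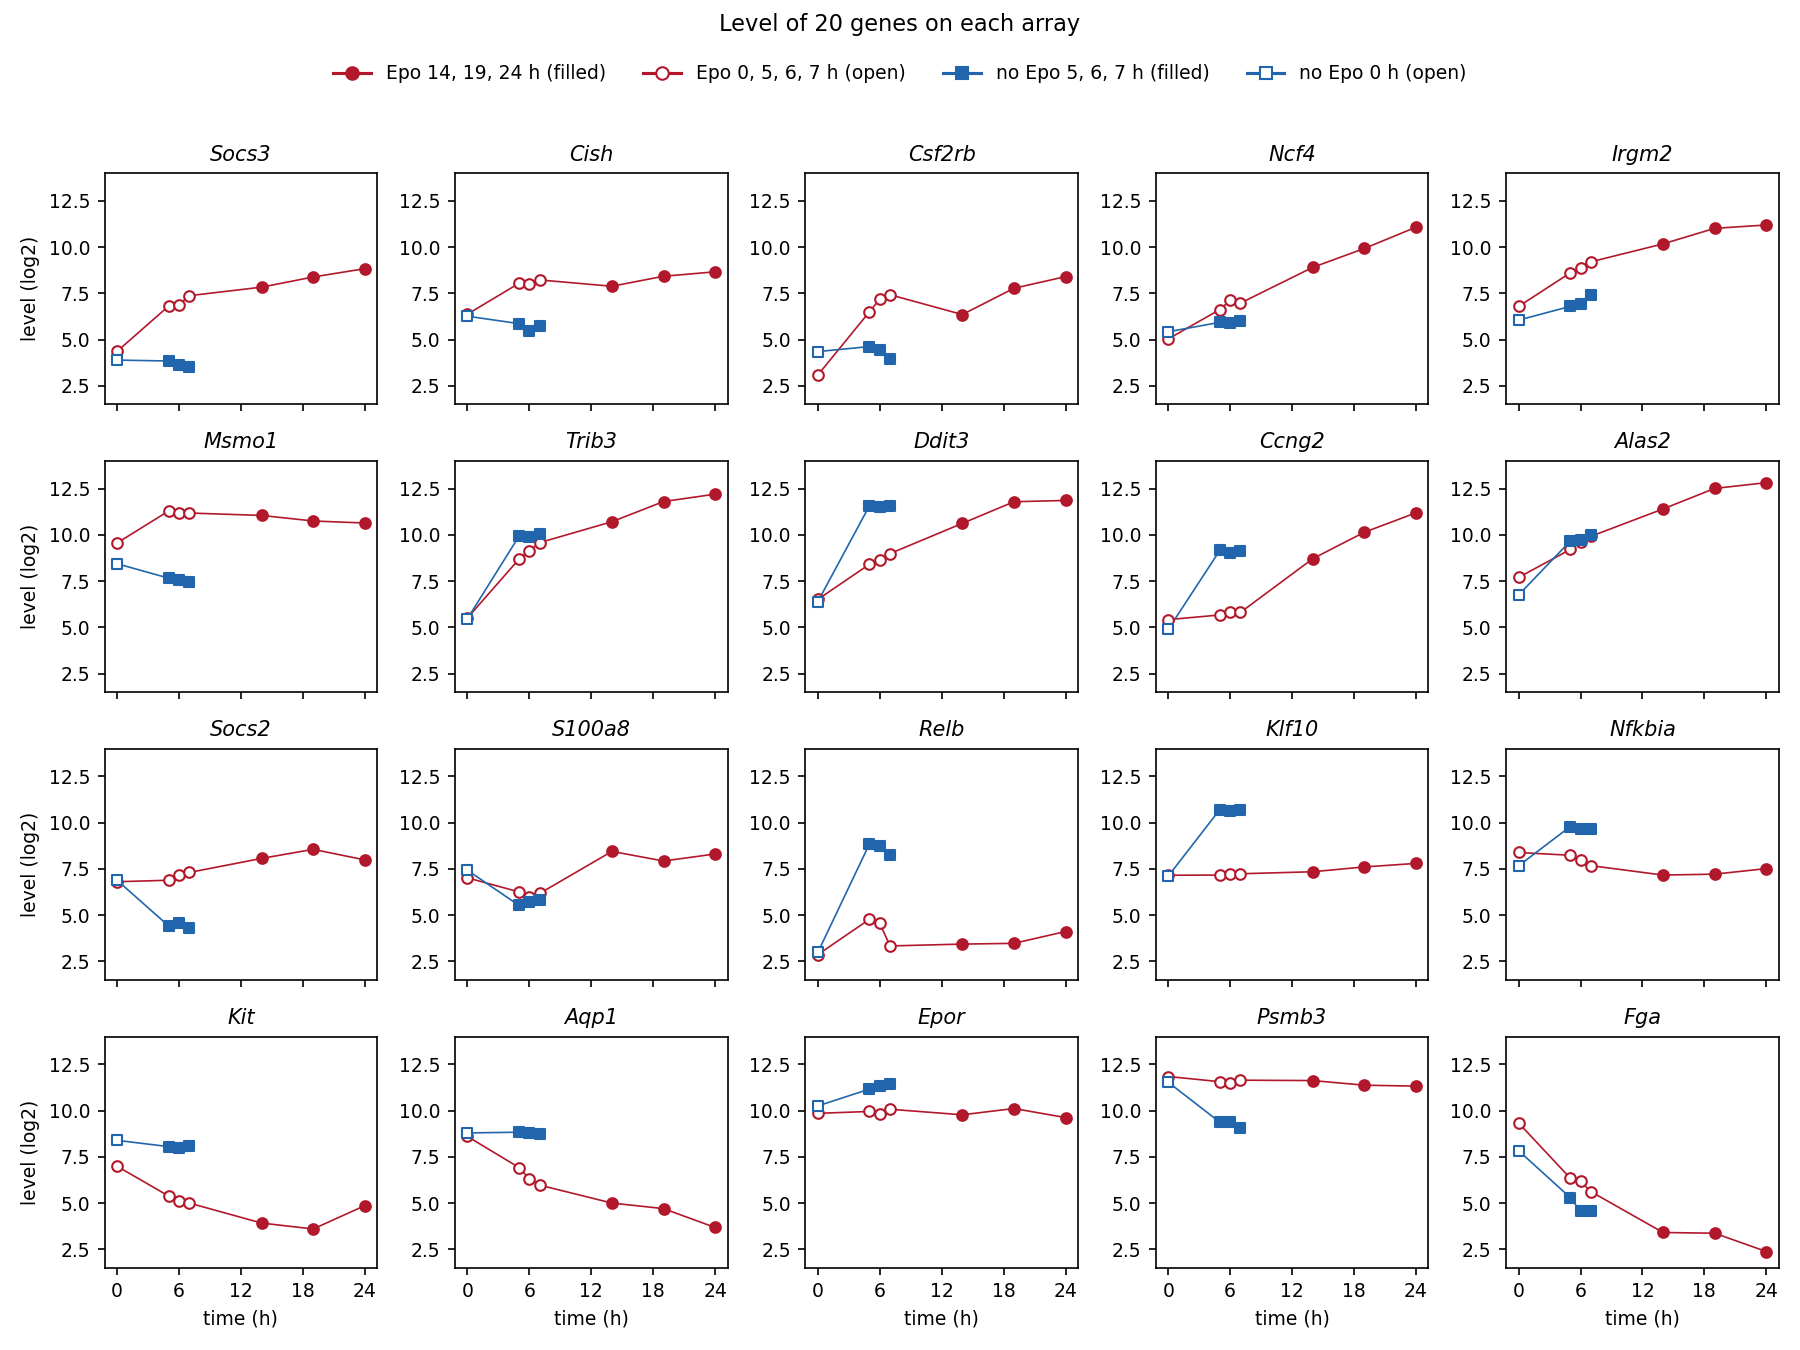
Levels (log2) of 20 genes against time (h), 1 array per point: red circles with Epo, filled at 14, 19 and 24 h, and blue squares without Epo, filled at 5, 6 and 7 h; open symbols are the 0 h arrays and the Epo arrays at 5 to 7 h. Trib3, Ddit3, Ccng2 and Alas2 rise in both series, Socs3 reaches 8.83 with Epo and stays at 3.5 to 3.89 without, and Relb reaches 8.85 without Epo and at most 4.78 on the Epo arrays drawn.

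Genes for building ribosomes had median falls on both sides. Of 39 ribosome biogenesis genes, 15 were called lower late with Epo and 4 in deprived cells, with medians of -1.48 and -1.0, and none were called higher. The shares of all genes called lower were 8.36% late with Epo, 3.44% in deprived cells and 10.9% between the sides. The count late with Epo was 37 without 14 h, 2 without 19 h, 24 without 24 h and 4 or 5 without 1 deprived array. The deprived count was 12 without 14 h, 19 without 24 h, 2 without 19 h, and 0 or 1 without 1 deprived array. The median change was -0.9, -1.39 and -2.3 at 14, 19 and 24 h. Between the sides 18 were lower, 10 without 24 h and 9 or 10 without the 5 or 6 h array. Rrs1, an assembly factor of the large subunit, lay at 8.95, 8.13 and 6.78 late with Epo and at 10.55, 10.46 and 10.36 in deprived cells. Fbl, the methylase fibrillarin, lay at 10.88, 10.56 and 9.32 against 12.07, 12.09 and 12.03. Of 32 cytosolic ribosomal protein genes, 1 was higher between the sides and the list's median was 0.12, as over all genes. Myc, which drives ribosome biogenesis, lay at 7.81, 7.66 and 6.76 late with Epo, from 9.34, and at 9.15, 8.94 and 9.0 in deprived cells, from 10.03.

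The genes that fell furthest on both sides held several known from liver. Fga, Rgn (regucalcin), Gja1 (a connexin), Ugt2b34 (a conjugating enzyme) and the zinc transporter gene Slc39a10 were among the 6 with the largest smaller-of-both fall. Rgn went from 9.42 to 3.88, 3.61 and 3.56 late with Epo and from 7.42 to 4.73, 4.04 and 3.73 without. Of the 13 hepatocyte markers, 8 were in this class of 343. The granulocyte gene Mpo, myeloperoxidase, was also among the 6 and went from 7.62 to 5.33, 5.09 and 4.16 and from 9.88 to 7.05, 6.89 and 6.43. Stat5a fell on both sides, with changes of -2.5 ± 0.26 and -1.14 ± 0.26, the second not called without any 1 of the deprived arrays.

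A small class of 4 genes rose late with Epo and fell in deprived cells, of which 3 have a gene name. Socs2 went from 6.81 to 8.07, 8.56 and 7.99 with Epo and from 6.89 to 4.42, 4.6 and 4.3 without. The 6 probe sets of Socs2 ranged from 0.17 to 3.77 between the sides. S100a8, a calcium-binding protein of granulocytes, went from 7.02 to 8.45, 7.93 and 8.31 and from 7.43 to 5.53, 5.74 and 5.8. At 5 to 7 h with Epo it lay at 5.99 to 6.26. Lyz1, a lysozyme, rose by 1.34 and fell by 1.44, but its 3 probe sets ranged from -0.06 to 1.2 between the sides. Of 12 granulocyte markers, 6 fell in deprived cells and 3 fell and 1 rose late with Epo, against 3.44%, 8.36% and 2.8% of all genes. Their median level was 4.34 to 4.5 late with Epo and 4.03 to 4.1 in deprived cells; their part in these results was not tested. Without any 1 of the deprived arrays, 1 gene of this kind was called.

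A class of 8 genes fell late with Epo and rose in deprived cells, of which 7 have a gene name. Nfkbia, the inhibitor of NF-kappaB, went from 8.39 to 7.17, 7.22 and 7.52 with Epo and from 7.67 to 9.79, 9.67 and 9.65 without. Its 5 probe sets ranged from -3.61 to -0.17 between the sides. Scarb2, a lysosomal membrane protein, went from 7.29 to 5.99, 5.67 and 5.01 and from 7.27 to 8.76, 8.59 and 8.69. Snhg5, a host gene of small nucleolar RNAs, went from 8.9 to 7.92, 7.68 and 7.16 and from 8.57 to 10.85, 10.74 and 10.68, while another probe set differed by 0.68. Shroom2, a regulator of cell shape, changed by 2.1 in deprived cells and by -1.14 late with Epo. The zinc finger genes Zfp58 and Zfp105 rose by 1.29 and 1.21 in deprived cells and changed by -1.6 and -2.52 late with Epo. In all of these the late Epo arrays lay below the deprived arrays, against 25.4% of all genes. The remaining named gene was Lclat1. The count was 21 without 14 h, 4 without 19 h, 14 without 24 h and 2 to 4 without 1 deprived array.

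The 24 genes called higher on the late Epo side, with a deprived change under 1, were led by Csf2rb, Ncf4, Socs3, Rragd, Pim1 and Irgm2. Csf2rb rose from 3.08 at 0 h by 4.43 ± 0.64 and changed by -0.02 in deprived cells. It already lay at 6.5 to 7.42 at 5 to 7 h with Epo. Socs3 rose by 3.99 ± 0.35 and changed by -0.23, and it lay at 6.81 to 7.37 at 5 to 7 h with Epo. Rragd, a GTPase that signals amino acids to mTORC1, went from 3.43 to 6.5, 7.68 and 7.59 and lay at 3.48 to 4.48 at 5 to 7 h with Epo. Cish rose by 1.95 ± 0.32 and changed by -0.57. Srxn1, which repairs oxidised peroxiredoxins, rose by 2.5 ± 0.23 and changed by -0.3. The levels of all 24 genes lay above the deprived arrays, against 30.3% of all genes. As the class was made from the same arrays, this only describes it. The number in this class was 153 without 14 h, 9 without 19 h, 94 without 24 h and 2 without any 1 of the deprived arrays.

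Most enzymes of cholesterol synthesis were higher late with Epo. Of 20, 16 were higher late with Epo and none lower, with a median difference of 1.69 against 0.12 over all genes. Among all genes 3.33% were higher and 10.9% lower between the sides, 2.8% rose late with Epo and 3.44% fell in deprived cells. With 1 array left out the count was 15 to 17. From their own 0 h, 10 rose late with Epo (6 without 19 h or without any 1 of the deprived arrays) and 1 rose and 1 fell in deprived cells. The median changes were 0.98 and -0.36, and the median level lay at 9.04, 9.18 and 8.7 late with Epo and at 7.67, 7.58 and 7.53 in deprived cells. Msmo1, a sterol demethylating enzyme, lay at 11.05, 10.75 and 10.64 against 7.66, 7.57 and 7.44 (3.26 ± 0.16, adjusted p = 2.2e-05). Fdft1, squalene synthase, lay at 11.03, 11.37 and 11.03 against 8.45, 8.45 and 8.46, although its 4 probe sets ranged from 0.23 to 2.69. Idi1, isopentenyl diphosphate isomerase, lay at 12.04, 11.61 and 10.97 against 9.29, 9.26 and 8.96. At 0 h the list was already higher in the Epo series, by a median of 0.49. The difference of the changes was called in 3 of the 20 against 0.313% of all genes (15 without 24 h, 6 without 14 h, 0 without any 1 of the deprived arrays). In fatty acid synthesis 4 of 14 were higher and 1 lower, among them the desaturase gene Scd2 (1.41), and 5 fell in deprived cells (1 without any 1 of the deprived arrays, 2 without 19 h).

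**Figure D3:**
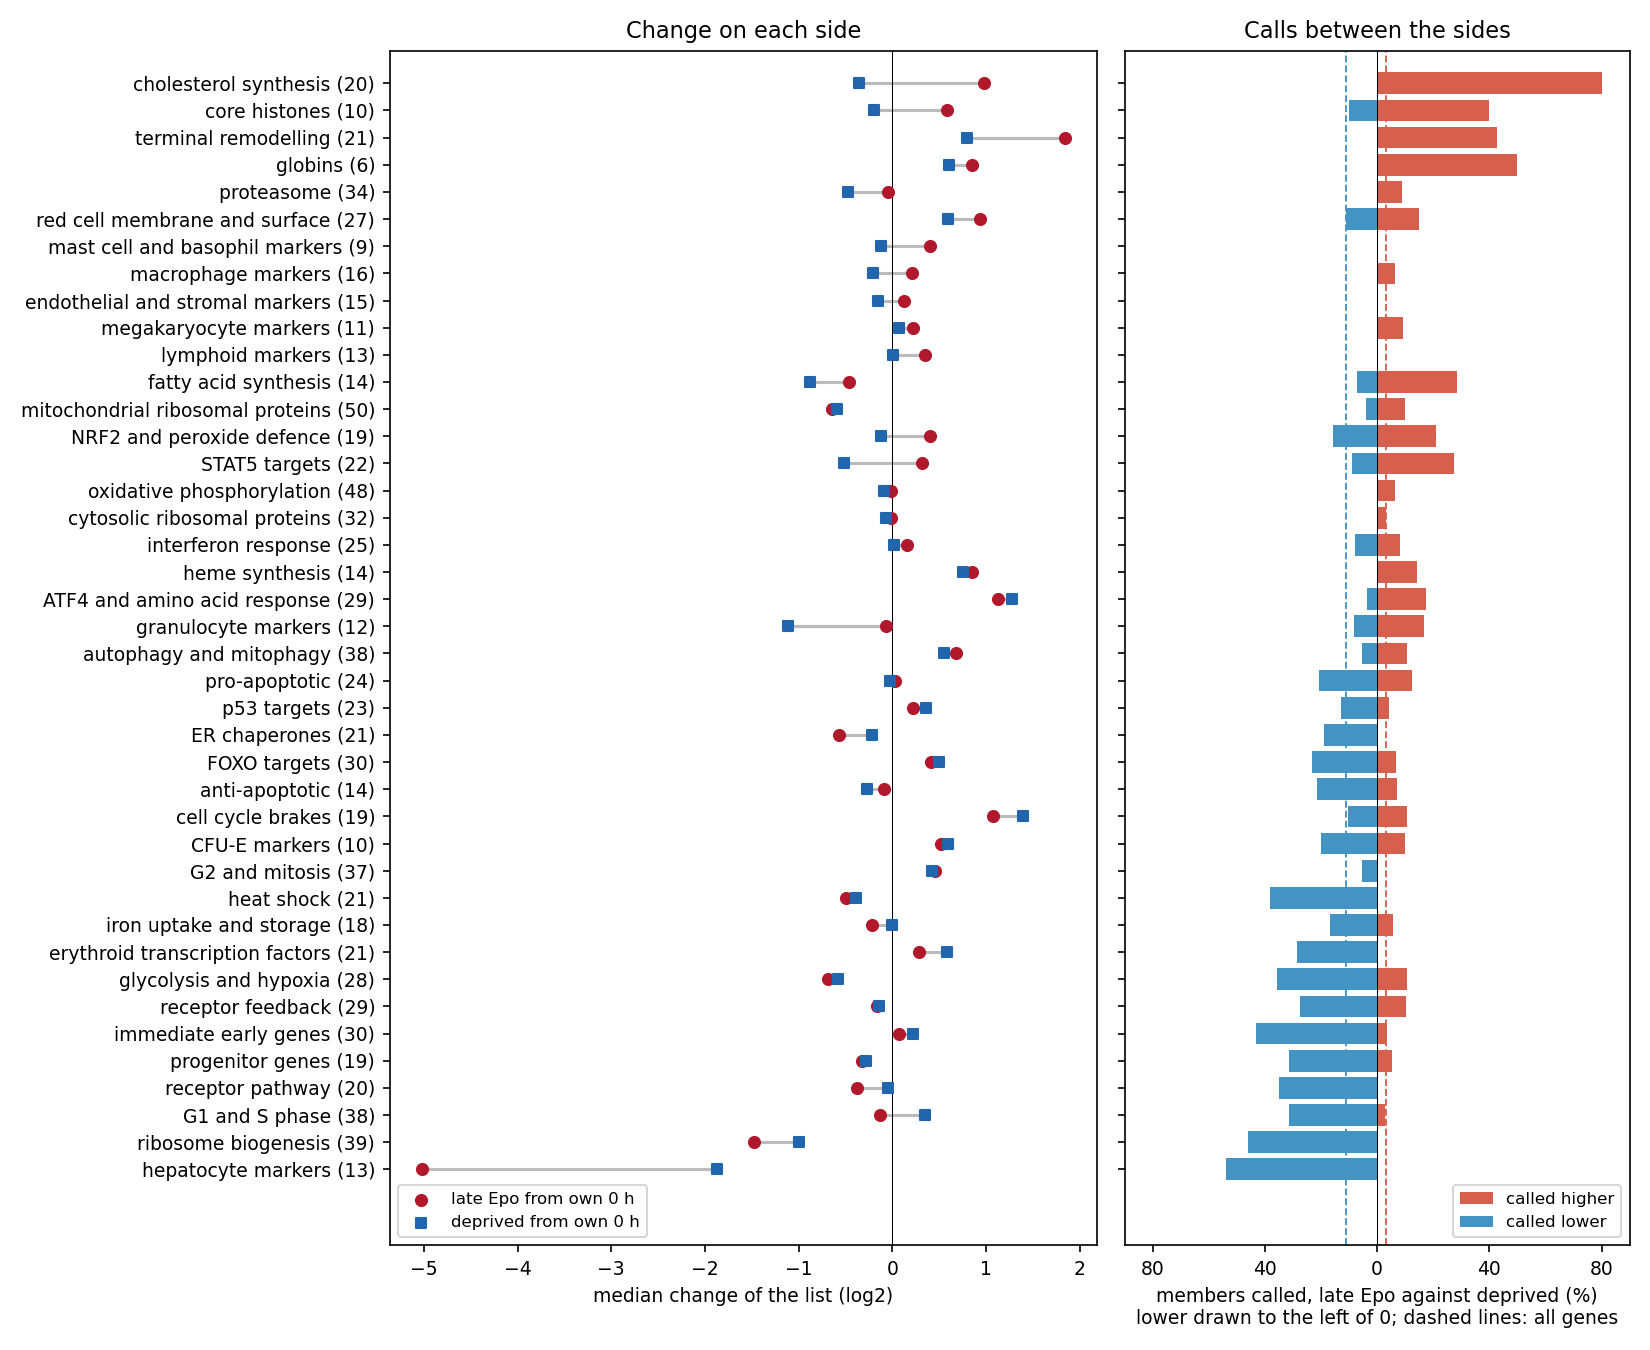
Left, the median change (log2) of each list from 0 h, red circles late with Epo and blue squares deprived, with the number of genes in brackets; right, the percent of each list called higher (red) or lower (blue, drawn leftwards) late with Epo against deprived, with dashed lines for all genes. Cholesterol synthesis lies at 0.98 and -0.36, ATF4 and amino acid response genes at 1.13 and 1.28, and hepatocyte markers at -5.02 and -1.87.

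The 91 genes called lower on the late Epo side, with a deprived change under 1, were led by Hspa1a, Aqp1, Mgst2, Leap2, Usp18 and Fnbp1l. Hspa1a, an inducible chaperone, fell from 8.86 to 3.98, 4.02 and 3.96 with Epo, whereas without Epo it was at 5.81 at 0 h and 5.64, 5.16 and 5.04 later. Leap2 and Mgst2, known from liver, fell by 3.59 and 3.52 and overlapped between the sides. At 0 h Leap2 lay at 7.07 in the Epo series and 3.81 in the other, and Mgst2 at 8.12 and 4.91. In this class the 0 h array of the Epo series was higher than the other by a median of 1.18. Its genes were below the deprived arrays in 50 of 91 and above them in 6, against 25.4% and 30.3% of all genes. Aqp1 was at 8.6 and 8.79 at the 0 h of each series, and at 6.92, 6.31 and 5.97 at 5 to 7 h with Epo. Kit fell by 2.87 ± 0.41 late with Epo and by 0.35 in deprived cells, with the difference of the changes not called. Usp18, which removes ISG15 and damps interferon signalling, lay at 5.45, 4.85 and 4.98 against 7.73, 7.87 and 7.95. The class held 431 genes without 14 h, 23 without 19 h, 415 without 24 h and 6 to 8 without 1 deprived array.

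The 122 genes called higher in deprived cells, with a late Epo change under 1, were led by Relb, Rhob, Jun, Ndrg1, Snhg16 and Gadd45g. Of 30 immediate early genes, 11 rose and 2 fell in deprived cells, 2 rose and 5 fell late with Epo, and 13 were lower and 1 higher between the sides. The shares over all genes were 3.99% and 3.44%, 2.8% and 8.36%, and 10.9% and 3.33%, in the same order. The difference of the changes was called lower in 8 of them, against 1.7% of all genes (15 without 24 h, 3 without 19 h, 1 without any 1 of the deprived arrays). Klf10, a transcription factor induced by TGF-beta, went from 7.11 to 10.71, 10.62 and 10.66 without Epo and lay at 7.35, 7.61 and 7.8 late with Epo. Jun, a subunit of AP-1, went from 4.94 to 8.07, 7.97 and 7.82 without Epo; with Epo it lay at 6.96 at 0 h, 4.98 to 5.19 at 5 to 7 h and 4.97, 6.4 and 6.81 late. Ier2 and Ier5 rose by 2.95 and 2.05. Relb rose by 5.64 ± 0.33 (adjusted p = 0.00019) from 2.99. Rhob, a small GTPase, went from 6.33 to 9.78, 9.83 and 9.78, and Gadd45g, a growth arrest gene, from 5.68 to 8.85, 8.85 and 9.11. Ndrg1 rose by 2.93 and Snhg16 by 3.63, whose other probe set differed by 1.0 between the sides. All 122 lay higher in deprived cells than late with Epo without overlap, against 25.4% of all genes. The class was made from the same arrays, so this is a description of it.

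Some erythroid and replication genes stood in the same class. Gfi1b, a repressor needed for red cell formation, went from 10.16 to 11.89, 12.02 and 12.09 without Epo and lay at 10.21, 10.31 and 10.2 late with Epo, from 10.01. Zbtb7a rose by 1.35 and the initiator caspase gene Casp2 by 1.34. Cdc6, which loads the replicative helicase, went from 10.68 to 12.43, 12.5 and 12.54 and lay at 10.7, 10.68 and 10.07 late with Epo. The class held 235 genes without 14 h, 44 without 19 h, 362 without 24 h and 12 to 16 without 1 deprived array. Of 21 erythroid transcription factor genes, 10 rose and 2 fell in deprived cells, 6 rose and 2 fell late with Epo, and 6 were lower and none higher between the sides. In the same order, the shares over all genes were 3.99% and 3.44%, 2.8% and 8.36%, and 10.9% and 3.33%. Gata1 and Klf1, the central factors, were not called and differed by -0.44 and -0.32.

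The 26 genes called lower in deprived cells, with a late Epo change under 1, had Zfc3h1, Ifitm1, Mtf1, S100a9, Pfkp and Grtp1 among those with the largest difference. Zfc3h1, a nuclear RNA surveillance protein, went from 6.28 to 4.45, 3.73 and 4.19 without Epo and lay at 6.28, 6.6 and 6.48 late with Epo. Pfkp, a phosphofructokinase, went from 7.15 to 5.84, 5.81 and 5.53. Psmb3, a proteasome core subunit, went from 11.53 to 9.37, 9.39 and 9.03 and lay at 11.62, 11.37 and 11.32 late with Epo. Of 34 proteasome genes, 5 fell in deprived cells (1 without any 1 of the deprived arrays, 3 without 19 h) and none late with Epo, with medians of -0.47 and -0.05. Between the sides 3 were higher (7 without 24 h). Among all genes 3.44% fell in deprived cells, 8.36% fell late with Epo and 3.33% were higher between the sides. Ndufb8 of respiratory complex I went from 11.55 to 10.23, 10.04 and 9.96, but another probe set differed by -0.09 between the sides. The class held 59 genes without 14 h, 3 without 19 h, 129 without 24 h and 0 without any 1 of the deprived arrays.

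**Figure D4:**
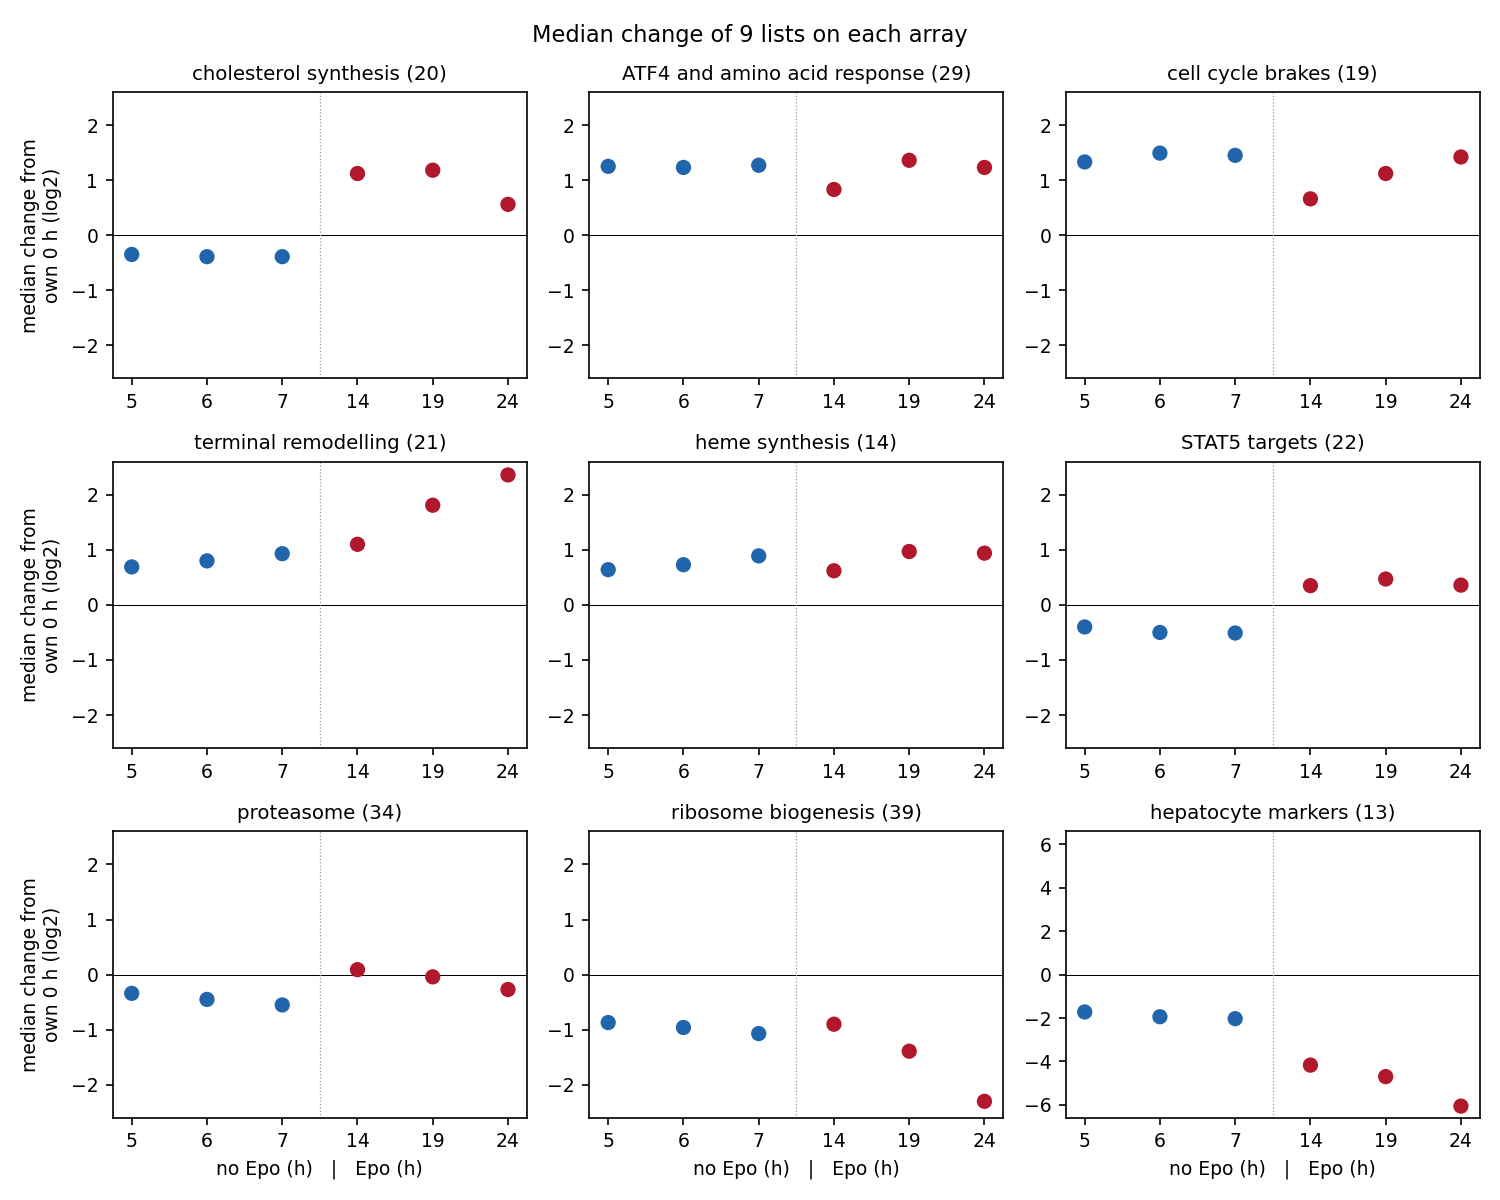
Median change (log2) of 9 lists from the 0 h array of their own series, 1 point per array, blue without Epo at 5, 6 and 7 h and red with Epo at 14, 19 and 24 h; the number of genes is in brackets, and the hepatocyte panel has a wider axis. Ribosome biogenesis lies at -0.9, -1.39 and -2.3 late with Epo, while cholesterol synthesis lies at 1.12, 1.18 and 0.56 and at -0.35 to -0.39 without Epo.

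The receptor gene Epor was lower late with Epo, while its inhibitors Cish, Socs2 and Socs3 were higher. Epor lay at 9.77, 10.11 and 9.62 late with Epo, from 9.85, and at 11.16, 11.34 and 11.44 in deprived cells, from 10.25. It was lower by 1.48 ± 0.16 with Epo, which is an adjusted p of 0.00024, and rose by 1.07 ± 0.23 in deprived cells. That rise was not called without any 1 of the deprived arrays, with adjusted p from 0.057 to 0.093. Of 20 receptor pathway genes, 7 were lower between the sides and none higher, with a median of -0.68. Among all genes 10.9% were lower and 3.33% higher, with a median of 0.12. Stat5a lay at 5.39, 4.84 and 5.32 against 6.97, 7.07 and 7.04, and Stat5b at 5.9, 5.48 and 4.81 against 7.27, 7.07 and 7.22. Stat3 differed by -1.5 ± 0.15. Of 29 feedback genes, Cish, Socs2 and Socs3 were higher and 8 lower, with a median of -0.52, among them the ubiquitin ligase gene Cbl at -1.93. The anti-apoptotic gene Bcl2l1, a known STAT5 target, lay at 8.6, 9.37 and 10.32 against 9.17, 9.22 and 9.39. It overlapped between the sides (0.17 ± 0.36) and was not called from 0 h on either side, with rises of 1.7 ± 0.51 and 1.44 ± 0.51. The pro-apoptotic Bcl2l11 (BIM) was lower late with Epo by 1.62 ± 0.15.

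Progenitor, proliferation and glycolysis genes are read against 10.9% of all genes lower and 3.33% higher late with Epo than in deprived cells. Of 19 progenitor genes, 6 were lower and 1 higher. Myb went from 9.81 to 6.82, 6.36 and 5.19 with Epo (-3.68 ± 0.5) and from 10.75 to 9.1, 9.08 and 8.91 without (-1.72 ± 0.5, adjusted p = 0.067). Gata2 lay at 5.58 to 5.68 against 6.17 to 6.32 and was not called. Of 38 G1 and S phase genes, 12 were lower and 1 higher, with a median of -0.7. Uhrf1, which maintains DNA methylation, lay at 10.3, 10.35 and 9.83 against 12.27, 12.34 and 12.53, and Fen1, the flap endonuclease, at 11.21, 11.52 and 10.83 against 12.89, 13.01 and 13.14. Of the 38, 6 rose in deprived cells (2 without 6 or 7 h). Of 37 G2 and mitosis genes, 8 rose in deprived cells (3 without 5 h, 2 without 6 or 7 h) and 4 late with Epo, against 3.99% and 2.8% of all genes. Between the sides 2 of them were lower, Kif11 (-1.63) and Aurkb (-1.25), a smaller share than over all genes. Of 28 glycolysis and hypoxia genes, 10 were lower and 3 higher. Pkm, pyruvate kinase, lay at 8.85, 8.47 and 7.41 against 10.44, 10.5 and 10.4. Of 21 heat shock genes, 8 were lower (3 without 24 h, 5 without any 1 of the deprived arrays) and none higher.

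Autophagy, histone, mitochondrial ribosomal and iron genes are read against 3.33% of all genes higher and 10.9% lower between the sides. Of 38 autophagy genes, 4 were higher and 2 lower, and 10 rose late with Epo (3 without 19 h, 6 without 5 h, 5 without 7 h) and 8 in deprived cells (3 without 5 or 7 h, 4 without 6 or 19 h). The shares of all genes that rose were 2.8% late with Epo and 3.99% in deprived cells. The list's median between the sides was -0.02, and 0.25 under quantile normalization. Atg4a, a protease that processes the LC3 family, lay at 9.74, 10.34 and 11.04 against 7.62, 7.53 and 7.72, while Atg14 lay at 5.29, 5.8 and 6.41 against 7.63, 7.52 and 7.46. Of 10 core histone and histone chaperone genes, 4 were higher and 1 lower; H3c4 lay at 8.6, 8.15 and 7.98 against 5.32, 5.4 and 5.3, and at 7.81 and 6.43 at 0 h. Of 50 mitochondrial ribosomal protein genes, 5 were higher and 2 lower, with Mrpl14 at 2.22 ± 0.15. At 0 h this list was already higher in the Epo series, by a median of 0.31, against 0.23 between the sides. Mrpl14 lay at 9.93 and 8.58 at 0 h, and none of the list had a called difference of the changes. In iron handling the heme exporter genes went apart. Abcg2 lay at 11.53, 12.19 and 12.18 against 9.84, 9.97 and 10.04, and Flvcr1 at 7.47, 6.78 and 5.77 against 9.31, 9.33 and 9.43, with another Flvcr1 probe set at 0.27. The platelet factor gene Pf4 lay at 7.53, 8.06 and 7.89 against 4.83, 4.9 and 5.04; among 11 megakaryocyte markers no other was called between the sides.

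The other lists are given as counts between the sides, beside 3.33% of all genes higher and 10.9% lower. Among 24 genes that promote apoptosis 3 were higher and 5 lower, and among 14 that oppose it 1 was higher and 3 lower. Of 48 oxidative phosphorylation genes 3 were higher (6 without 24 h, 5 without 5 h) and none lower. Of 21 chaperone genes of the endoplasmic reticulum none was higher and 4 were lower (1 without 24 h). Of 19 genes of the NRF2 and peroxide defence 4 were higher and 3 lower. Of 23 p53 targets 1 was higher and 3 lower (5 without 14 h). Of 25 interferon response genes 2 were higher (4 without 14 h) and 2 lower. Of 18 iron uptake and storage genes 1 was higher and 3 lower. The medians of these lists lay between -0.36 and 0.23, against 0.12 over all genes.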

How the data were processed

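RNA had been hybridised to 1-colour Affymetrix mouse arrays after one-cycle biotin labelling, per the labels' protocols. The authors deposited log2 levels from 1.37 to 14.6, and their summary and normalization steps are not given in the labels used here. They were used as deposited, so precision is limited by the number of arrays. Of the probe sets, 34958 had 1 gene in the platform annotation, 932 had several and 9211 none; 64 were controls. For each of the 18193 genes, the brightest probe set on average across the 20 arrays was kept. Gene IDs of 34741 probe sets were found in RefSeq GRCm38.p6.

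The model was limma 3.58.1 (lmFit, eBayes with trend, R 4.3.3) on 8 arrays with 4 group means, 4 residual degrees of freedom and 4.87 prior ones, with Benjamini-Hochberg adjustment over all genes; every adjusted p is from it. It was tested on simulated data. Named genes were, per class, the 6 with the largest change common to both sides (or difference of changes, for one-sided classes), the 10 largest rises and falls between the sides without overlap, up to 4 per list by size of difference, and a set of known regulators; clone names stay unnamed. Other genes are said to be chosen after their values were seen. The arrays, lists and genes were chosen with earlier results of these data known, and no list is independent evidence. One known regulator, and some list members, were not analysed here. Tables were made with Python 3.11.15, pandas 2.3.3 and numpy 2.4.6, and figures with matplotlib 3.10.9.

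Alternatives were quantile normalization, median centring, the brighter genes alone, other probe set choices, other variance models, all 20 arrays in the fit, both 0 h arrays as 1 reference, no fold threshold, and each array left out in turn.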

Additional observations from a re-analysis of the deposited data

Results flagged for a closer look

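Each gene here had a difference between its late Epo change and its deprived change that passed the test of that difference in the same model, so the sides moved unlike each other from their own 0 h. The values are log2 differences, late Epo change minus deprived change, each resting on 1 array at 0 h per series. Of 58 named genes with such a call, 41 lost it without at least 1 array, 39, 39 and 41 without 5, 6 and 7 h and 28 without 19 h. Among genes with the higher change late with Epo, Csf2rb stood at 4.45, Ncf4 at 4.41, Socs3 at 4.21, Socs2 at 3.85, Rragd at 3.29, Pim1 at 3.07 and Irgm2 at 3.03. S100a8 followed at 2.95, Lyz1 at 2.78, Zfc3h1 at 2.36, Ifitm1 at 2.35, Mtf1 at 2.27, S100a9 at 2.22, Pfkp at 2.13 and Grtp1 at 2.12. Probe sets of Lyz1, Mtf1 and Socs2 disagreed between the sides.

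Among genes with the higher change in deprived cells, Relb stood at -4.82, Rhob at -3.95, Jun at -3.92, Ndrg1 at -3.8, Zfp105 at -3.73, Snhg16 at -3.64, Gadd45g at -3.63 and Snhg5 at -3.5. Shroom2 was at -3.24, Scarb2 at -3.14, Nfkbia at -3.11 and Zfp58 at -2.89. Genes whose fall was on the late Epo side were Hspa1a at -4.35, Aqp1 at -4.12, Mgst2 at -3.35, Leap2 at -3.08, Usp18 at -2.95 and Fnbp1l at -2.87. At 0 h the Epo series was higher in Hspa1a (8.86 against 5.81), Mgst2 (8.12 against 4.91) and Leap2 (7.07 against 3.81). The 0 h arrays were closer in Aqp1 (8.6 against 8.79), Usp18 (7.17 against 6.97) and Fnbp1l (5.09 against 4.45). Of genes that fell on both sides, Fga stood at -3.26, Rgn at -2.48 and Ugt2b34 at -1.77, and their levels at 0 h were higher in the Epo series.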

How the results depend on the processing

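Counts of called genes moved by over 1.5 times in 108 of 272 alternatives. Values of named genes kept their side of the threshold in 10952 of 11824. Those called in both settings also kept direction, which was not checked for those called in neither. With 1 array left out, the range was 574 to 713 higher and 1614 to 2338 lower between the sides, 311 to 842 and 931 to 2333 late with Epo, 336 to 833 and 234 to 989 in deprived cells, and 3 to 347 and 33 to 1240 for the difference of the changes. For the classes it was 77 to 277 and 142 to 579 alike, 1 to 6 and 2 to 21 opposite, 2 to 153 and 6 to 431 on the late Epo side, and 12 to 362 and 0 to 129 on the deprived side, rises first. Quantile normalization gave 928 higher between the sides, 818 rises late with Epo, 100 higher for the difference of the changes, 42 falls on the deprived side, and 7 and 5 opposite genes. Quantile normalization without the 24 h array, chosen after seeing the data, gave 1191 lower between the sides, 510 and 950 for the difference, 295 alike higher, 9 opposite, 161 and 315 on the late Epo side and 290 and 157 on the deprived side. All 20 arrays in the fit gave 209 and 708 for the difference, 549 alike lower, and 90 and 338 on the late Epo side. Both 0 h arrays as 1 reference gave 1033 falls in deprived cells, 598 alike lower, 13 and 27 opposite, 216 and 869 on the late Epo side and 451 and 174 on the deprived side. The adjusted p alone gave 3291 and 3681 between the sides, 969 rises late with Epo, and 9 and 22 opposite. The mean of all probe sets gave 1 and 5 opposite, unique probe sets 2 opposite, and the brighter genes 49 falls on the late Epo side. With unique probe sets, Hbb-b2 reversed to -0.42 between the sides, -0.72 late with Epo and -0.69 in deprived cells, Lyz1 to -0.06 and -0.12, Tob2 to 0.06 between the sides and Trib2 to 0.39 for the difference of the changes. Apart from fewer arrays or genes, the cause was not tested. List medians moved in 41 of 573 alternatives and 18 differed in sign; list counts of 2 or 3 genes often moved by 1 or more with 1 array left out. No paired analysis was possible because the labels give no replicate numbers and the times of the groups compared differ.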

Other observations

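The genes in these paragraphs were chosen after their values were seen, and they have no independent test. Several genes known as targets of the aryl hydrocarbon receptor were higher in deprived cells, beside Cyp1a1. Ahrr, its repressor, differed by -3.0 on the log2 scale, late Epo minus deprived, and had risen by 3.15 in deprived cells. Tiparp was at -2.18 between the sides with a rise of 1.35, and Cyp1b1 at -1.21 with a rise of 1.57, where another probe set gave 0.28. Nqo1, also a target, went the other way between the sides (1.11) and rose on both, by 3.38 late with Epo and 2.98 in deprived cells. Ahr itself differed by -0.22 and was not called.

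Some known targets of NF-kappaB were also higher in deprived cells. Nfkb2 differed by -1.85 with a rise of 1.85 in deprived cells (another probe set gave 0.28), Icam1 by -2.52 with a rise of 2.14, Cxcl10 by -1.73 with a rise of 2.07 and Tnfaip3 by -1.79 with a rise of 1.97. Birc3 differed by -1.78, but another of its probe sets gave 0.15.

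Host genes of small nucleolar RNAs did not all move one way. In deprived cells Snhg12 rose by 3.56, Snhg1 by 3.1 and Zfas1 by 2.25, while Snhg3 fell by 2.07. Late with Epo, Snhg1 rose by 1.61 and Zfas1 by 1.41. Between the sides Snhg12 was at -2.84 and Snhg3 at 1.68.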
